A study of Kluyveromyces lactis with 6 samples.

Results

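In the budding yeast Kluyveromyces lactis, 113 of 5076 measured genes were modestly expressed in wild-type cells, lay away from the chromosome ends and had their RNA level at or under 50% of wild type in each of 2 isolates without SIR2. They were chosen by value. FPKM, a read count scaled by the length of the transcript and by the size of the library, was averaged over the 2 libraries of each strain. A gene was kept where the WT mean was at least 10 and under 100 FPKM and where log2((isolate mean + 1)/(WT mean + 1)) was -1 or less in both isolates. The first and last 30 gene identifiers of each chromosome, SIR2 itself and 3 other identifiers were left out. Of the 2786 internal genes in that range of WT levels, the rule kept 4.06%. Because the rule used the ratio of sir2Δ to WT, the lower levels given here are a description of the chosen genes and carry no test.

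The study compared total gene expression in sir2Δ and WT cultures by sequencing poly(A) RNA. The sir2Δ group was 2 MATa strains, LRY2849 (isolate 1) and LRY2850 (isolate 2), and the WT group was 1 MATa strain, LRY2835, that carries SIR2. The silent mating-type cassettes HML and HMR were deleted in all 3 strains, in sir2Δ and WT alike. Each strain gave 2 technical libraries from cells in early logarithmic growth at 30 °C in rich medium with 1% yeast extract, 2% peptone and 2% glucose, for 6 libraries in all. With 1 WT strain, a trait of that strain other than SIR2 cannot be told apart from the deletion.

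Sir2 is a deacetylase of histones and other proteins that keeps chromatin silent, best known from Saccharomyces cerevisiae, where it acts at telomeres, the silent mating-type loci and the ribosomal DNA repeats. Ribosomes are built in the nucleolus: a long precursor RNA is transcribed, folded, modified and cut while many assembly factors bind and leave, and the small and large subunits are finished in the cytoplasm. In S. cerevisiae the genes for these factors are known to be expressed together with the growth rate of the cell. The roles given here are those of the S. cerevisiae proteins of the same name unless stated otherwise.

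SIR2 was at 0.0916 and 0.0845 FPKM in the libraries of isolate 1, at 0.108 and 0.0503 FPKM in those of isolate 2, and at 66.9 and 64.9 FPKM in WT. The libraries thus matched their labels as sir2Δ or WT, while SIR2 cannot tell isolate 1 from isolate 2. FPKM summed to between 1542502 and 1803539 per library, and read depth is not known. Of the 5021 genes that reached a mean of 1 FPKM over the strains, 19.9% passed the test as lower and 20.2% as higher in sir2Δ (limma, adjusted p under 0.05, strain means). All 113 genes were among those tested.

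Across the 113 genes, the median log2 ratio was -1.19 in isolate 1 and -1.53 in isolate 2, against -0.06 and -0.05 over all tested genes. In isolate 1 the values ran from -2.81 to -1.002 and in isolate 2 from -3.02 to -1.03. The median gene was thus at 42.8% of its WT level in isolate 1 and at 33.2% in isolate 2. The rule set the upper end of both ranges and used these same ratios, so the spread under it is a description. At -1.5 or less were 14 genes in isolate 1 and 62 in isolate 2, and at -2 or less 1 gene in isolate 1 and 10 in isolate 2. The rule also shapes this contrast. Of the other internal genes of this WT level, 150 were halved in isolate 2 only and 9 in isolate 1 only, so isolate 1 more often set the limit. In whole-culture RNA, fewer cells that express a gene and less RNA per cell cannot be told apart.

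The median level of the genes was 20.2 and 20.9 FPKM in the isolate 1 libraries, 16.1 and 15.8 FPKM in the isolate 2 libraries, and 45.6 and 49.7 FPKM in the WT libraries. In all 113 genes, each of the 4 sir2Δ libraries was under both WT libraries. The rule on strain means fixes this in large part, and no share over all genes is given. The summed FPKM of the 113 genes made up 0.155% and 0.151% of the total in isolate 1, 0.121% and 0.107% in isolate 2, and 0.349% and 0.375% in WT. Technical spread was small beside these differences: the log2 difference between the 2 libraries of a strain had an SD over the genes of 0.18 in isolate 1, 0.19 in isolate 2 and 0.09 in WT. The second WT library was the higher by a median of 0.12 on the log2 scale in these genes, against 0.01 over all tested genes.

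**Figure D1:**
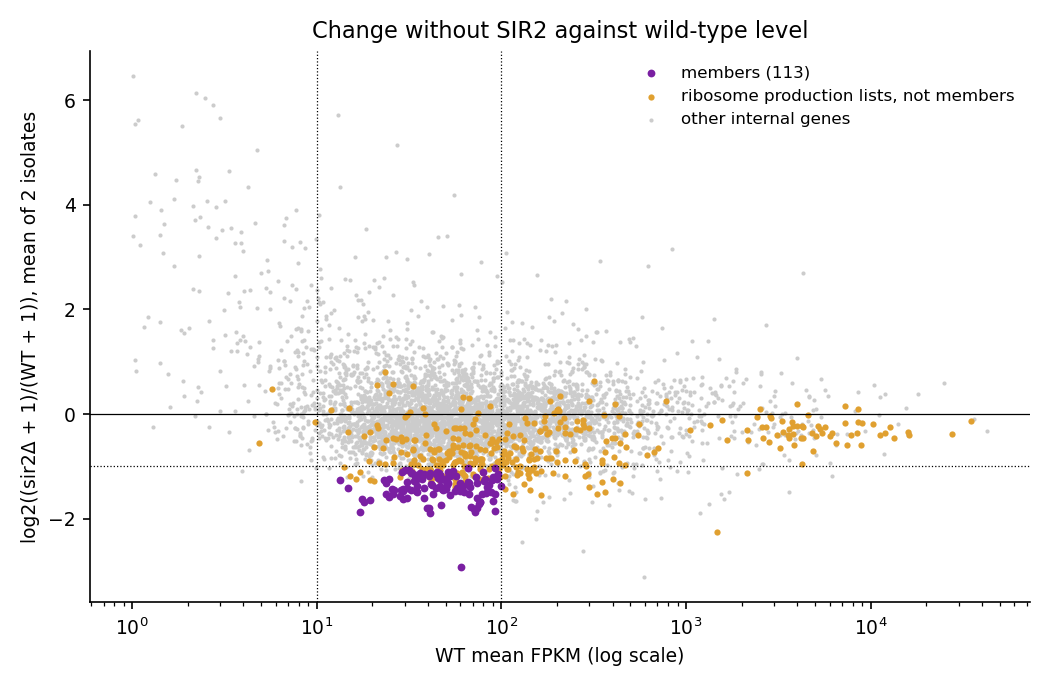
Mean log2 ratio of the 2 sir2Δ isolates over WT (vertical axis) against the WT level in FPKM (horizontal log axis) for internal genes of at least 1 FPKM in WT, with the 113 chosen genes (members) and the other genes of the ribosome and translation lists marked. The chosen genes lie under -1 between 10 and 100 FPKM, where genes halved in 1 isolate only can lie as well. Their median is -1.38, and 1 chosen gene, FAF1, is far under the others at -2.91.

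The rule took genes of every level within its range, though not evenly. Under 30 FPKM in WT it kept 20 genes, 2.06% of the internal genes of that level, with a median mean log2 ratio of -1.46. Between 30 and 60 FPKM it kept 56 genes, 5.06%, with a median of -1.29, and from 60 FPKM it kept 37 genes, 5.21%, with a median of -1.38. The added 1 FPKM in the ratio pulls the values of the lowest genes towards 0.

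FAF1, which encodes a nucleolar protein needed for the small subunit RNA, had the lowest ratio. It was at 6.83 and 8.61 FPKM in isolate 1, 6.74 and 6.38 FPKM in isolate 2, and 57.4 and 63.1 FPKM in WT. That is 12.8% of the WT level in isolate 1 and 10.9% in isolate 2, while the next lowest share in any isolate was 18.4%, that of KLLA0A07777g in isolate 2. The 4 sir2Δ libraries of FAF1 lay close together and far under WT.

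RCM1, a methyltransferase of the large subunit RNA, was at 12.3 and 11.4 FPKM in isolate 1, 10.0 and 8.16 FPKM in isolate 2, and 38.5 and 43.8 FPKM in WT. SDA1, which acts in export of the large subunit from the nucleus, was at 22.8 and 26.4 FPKM in isolate 1, 15.1 and 14.2 FPKM in isolate 2, and 69.7 and 74.6 FPKM in WT. For both genes the 4 sir2Δ libraries were far from the WT libraries, and for both isolate 2 was the lower isolate. DBP8, an RNA helicase of small subunit assembly, was at 13.2 and 12.2 FPKM in isolate 1, 8.88 and 8.98 FPKM in isolate 2, and 36.3 and 42.6 FPKM in WT. PXR1, a nucleolar protein of precursor RNA processing, was at 26.2 and 22.7 FPKM in isolate 1, 15.1 and 15.5 FPKM in isolate 2, and 68.7 and 67.9 FPKM in WT. The isolates did not overlap in either of these genes. TMA23, another nucleolar protein of ribosome production, was at 24.5 and 22.6 FPKM in isolate 1, 18.6 and 17.7 FPKM in isolate 2, and 71.5 and 76.3 FPKM in WT.

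The other 4 of the 10 lowest genes were of other kinds or had no symbol. SER2, the phosphatase of the last step of serine synthesis, was at 26.7 and 25.9 FPKM in isolate 1, 22.8 and 23.6 FPKM in isolate 2, and 89.8 and 94.1 FPKM in WT. TRM44, a methyltransferase of serine tRNA, was at 14.1 and 11.4 FPKM in isolate 1, 9.42 and 9.32 FPKM in isolate 2, and 37.2 and 43.9 FPKM in WT. Both genes kept a wide gap between sir2Δ and WT. KLLA0F07073g was at 31.8 and 22.2 FPKM in isolate 1, 16.5 and 12.2 FPKM in isolate 2, and 74.02 and 68.9 FPKM in WT. KLLA0A07777g was at 4.47 and 5.45 FPKM in isolate 1, 2.79 and 3.50 FPKM in isolate 2, and 14.8 and 19.5 FPKM in WT. Neither identifier has a symbol in the gene table used here. The technical libraries of KLLA0F07073g lay further apart than those of the other 9, with the isolates still separate.

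**Figure D2:**
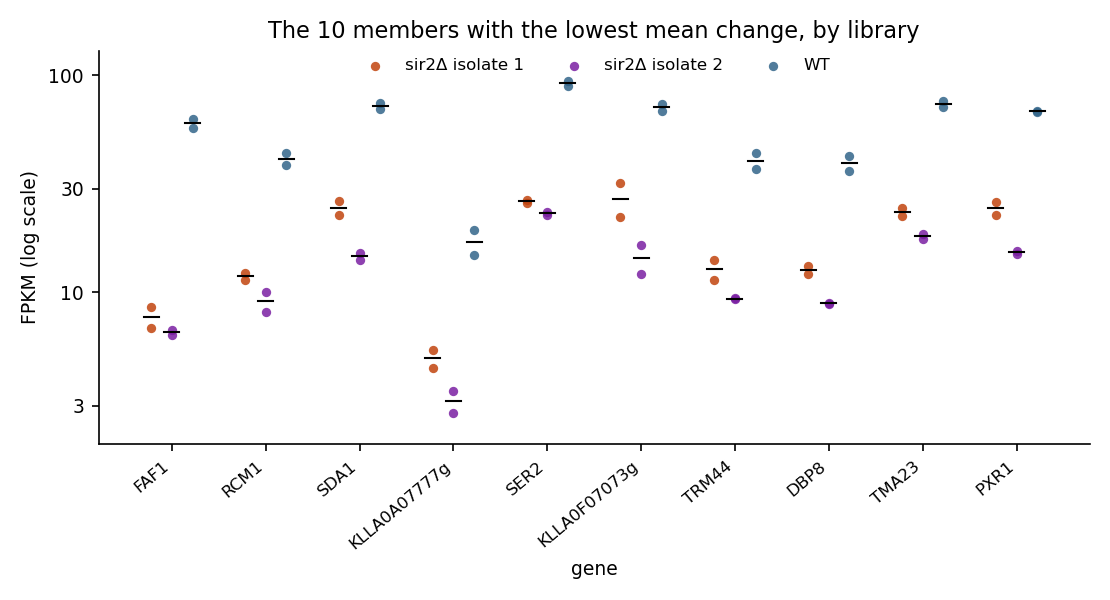
Level in FPKM (vertical log axis) in each of the 6 libraries for the 10 genes with the lowest mean ratio (horizontal axis), with colours for isolate 1, isolate 2 and WT and a bar at each mean of 2 libraries. For every gene the 4 sir2Δ libraries lie under both WT libraries, which the rule fixes in large part. The widest gap is that of FAF1, with 8.61 FPKM in its highest sir2Δ library and 57.4 FPKM in its lowest WT library.

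Of the 113 genes, 68 (60.2%) belonged to 9 lists of genes that make ribosomes, tRNAs or translation factors, 3 belonged to other lists, and 42 were in no list. Among all tested genes the 9 lists held 8.86%, and among the internal genes of the same WT level that were not chosen they held 6.32%. The lists were assembled with earlier results of these data known, so these shares are a description.

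**Figure D3:**
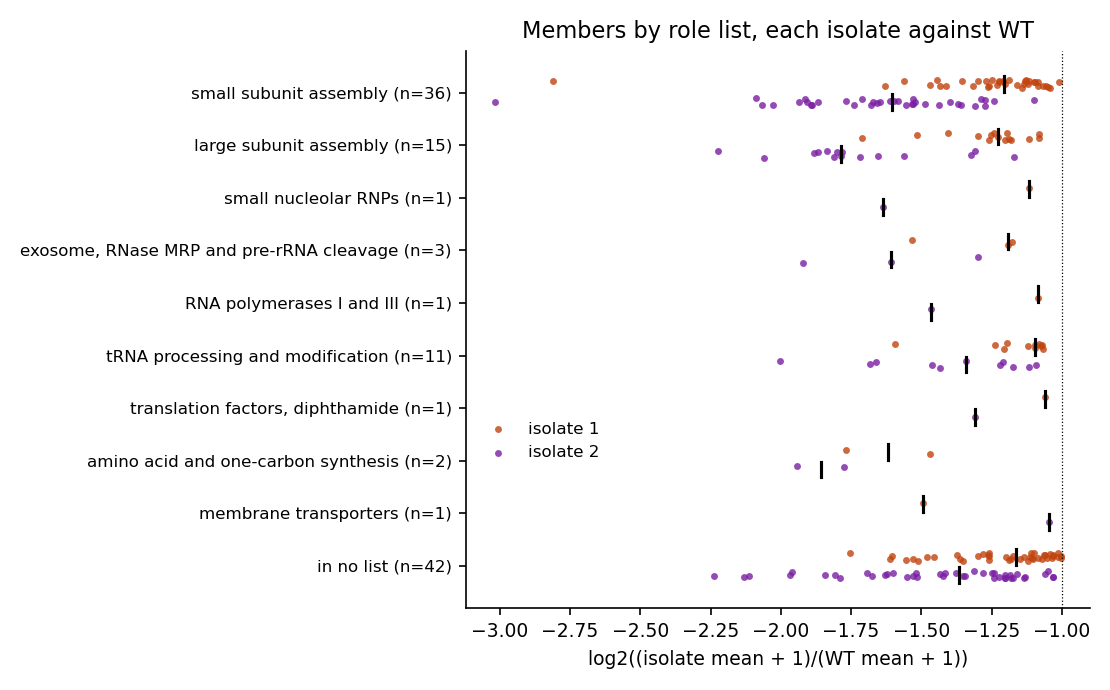
Log2 ratio over WT (horizontal axis) in isolate 1 and isolate 2 for each of the 113 genes (members), 1 row per role list, with a bar at each median and a dotted line at the rule's -1. In small subunit assembly, the list with the most genes, FAF1 lies apart at -2.81 in isolate 1 and -3.02 in isolate 2.

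Small subunit assembly gave the most genes, 36 of its 79, of which 65 were internal and within the range of the rule. The mean log2 ratio of the 36 had a median of -1.42 and ran from -2.91 for FAF1 to -1.08 for LTV1, which acts late, in the cytoplasmic steps of assembly. UTP11, a part of the large particle that forms on the small subunit precursor (the processome), was at 23.6 and 30.7 FPKM in isolate 1, 20.001 and 19.6 FPKM in isolate 2, and 72.2 and 81.8 FPKM in WT. BUD22, another nucleolar factor of this subunit, was at 16.2 and 17.5 FPKM in isolate 1, 8.98 and 7.64 FPKM in isolate 2, and 36.3 and 39.6 FPKM in WT. Both isolates were under WT in each, and for BUD22 the distance between the isolates was wide as well. The genes covered the course of assembly: UTP5, UTP15, PWP2, UTP6, UTP13 and UTP18 for early binding to the precursor, RRP9, which binds the small nucleolar RNA that guides the first cuts, BMS1 and RCL1 for the cuts themselves, and ENP1, TSR1 and NOB1, the nuclease of the last cut, for the late steps.

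Among the early factors, UTP15 was at 28.2 and 28.9 FPKM in isolate 1, 29.5 and 24.3 FPKM in isolate 2, and 89.7 and 90.9 FPKM in WT, with the isolates overlapping. PWP2, the scaffold of its complex, was at 25.3 and 30.1 FPKM in isolate 1, 18.1 and 21.2 FPKM in isolate 2, and 59.1 and 65.2 FPKM in WT. RRP9 was at 29.7 and 30.3 FPKM in isolate 1, 18.9 and 18.2 FPKM in isolate 2, and 69.5 and 77.9 FPKM in WT. UTP15 had a like level in both isolates, while PWP2 and RRP9 were lower in isolate 2. Among the late factors, NOB1 was at 19.97 and 21.0 FPKM in isolate 1, 18.5 and 17.7 FPKM in isolate 2, and 49.9 and 51.3 FPKM in WT. TSR1, a factor of the cytoplasmic steps related to translation GTPases, was at 21.8 and 23.7 FPKM in isolate 1, 17.8 and 20.3 FPKM in isolate 2, and 56.0 and 63.4 FPKM in WT. As a share of WT, NOB1 was at 40.5% in isolate 1 and 35.7% in isolate 2, and UTP15 at 31.6% in isolate 1 and 29.8% in isolate 2. NOP6 and SGD1, 2 further factors of this subunit, were at 40.02% and 37.9% of WT in isolate 1, with 30.4% and 28.9% in isolate 2. SGD1 was one of the lowest expressed of the 113, with 5.20 and 6.01 FPKM in isolate 1, 4.08 and 4.48 FPKM in isolate 2, and 14.1 and 15.5 FPKM in WT.

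Large subunit assembly gave 15 of its 88 genes, of which 53 were internal and within the range of the rule. At 100 FPKM or more in WT, 10 further genes of this list and 4 of the small subunit list were halved in both isolates. The 15 had mean log2 ratios between -1.89 and -1.13 and a median of -1.51. Beside RCM1 and SDA1, the lowest was IPI1, a subunit of the RIX1 complex that matures the particle before export, with 10.7 and 11.3 FPKM in isolate 1, 8.90 and 7.54 FPKM in isolate 2, and 28.6 and 33.0 FPKM in WT. REI1, which acts on the particle in the cytoplasm, was at 21.3 and 22.6 FPKM in isolate 1, 14.2 and 13.2 FPKM in isolate 2, and 49.3 and 56.2 FPKM in WT. The isolates were apart in both genes, with isolate 2 the lower. EBP2, a nucleolar scaffold protein, had the highest WT level of the 113 and was at 43.0 and 43.4 FPKM in isolate 1, 32.8 and 33.4 FPKM in isolate 2, and 97.2 and 102 FPKM in WT. RSA1, which helps small nucleolar particles and the large subunit to assemble, had the lowest, with 4.66 and 5.93 FPKM in isolate 1, 4.80 and 4.84 FPKM in isolate 2, and 12.6 and 14.2 FPKM in WT. RSA1 overlapped between the isolates and EBP2 did not.

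tRNA processing and modification gave 11 of its 66 genes, of which 52 were internal and within the range of the rule. The 11 had a median mean log2 ratio of -1.22. TRM44 was the lowest, followed by TRM2, which makes ribothymidine in tRNA, with 19.1 and 20.9 FPKM in isolate 1, 13.6 and 15.8 FPKM in isolate 2, and 45.9 and 51.2 FPKM in WT. GCD10, a subunit of the tRNA adenosine methyltransferase, was at 21.0 and 22.2 FPKM in isolate 1, 14.7 and 12.9 FPKM in isolate 2, and 46.0 and 46.9 FPKM in WT. These genes had no overlap between the isolates and, like all 113 genes, none between sir2Δ and WT. The others were TRM5 and TRM13, also methyltransferases, PUS4 and PUS6, which make pseudouridine, SEN2, a subunit of the splicing endonuclease, TRZ1, which cuts the tail of the tRNA precursor, NCS2, which acts in thiolation, and ELP4, a subunit of Elongator. ELP4 had the highest mean ratio of the 11, at 46.3% of WT in isolate 1 and 45.1% in isolate 2.

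The remaining lists gave few genes. POP4, a protein of RNase P and RNase MRP, was at 16.8 and 14.5 FPKM in isolate 1, 12.3 and 11.1 FPKM in isolate 2, and 46.3 and 48.1 FPKM in WT. The exosome subunits RRP4 and RRP46, of the complex that trims precursor RNA, were at 43.1% and 43.6% of WT in isolate 1, with 32.0% and 39.99% in isolate 2. RPC25, a subunit of RNA polymerase III, was at 36.8 and 38.4 FPKM in isolate 1, 26.1 and 31.2 FPKM in isolate 2, and 76.3 and 85.5 FPKM in WT. HIT1, a factor of small nucleolar particle assembly, was at 13.3 and 17.7 FPKM in isolate 1, 9.11 and 11.9 FPKM in isolate 2, and 29.3 and 40.3 FPKM in WT. HIT1 had a wide technical spread in every strain. DPH2, which acts in the diphthamide modification of an elongation factor, was at 46.7% of WT in isolate 1 and 38.9% in isolate 2. No ribosomal protein gene and no tRNA synthetase gene was among the 113: all 57 ribosomal protein genes and 18 of the 20 synthetase genes were at 100 FPKM or more in WT, outside the range of the rule.

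The genes were also placed in 9 known complexes or families, chosen after their values were seen. Of the 6 genes of UTP-B, an early complex of the processome, 4 were among the 113: PWP2 at -1.37, UTP6 at -1.33, UTP18 at -1.33 and UTP13 at -1.16 on the mean log2 scale. DIP2 was halved in isolate 2 only and UTP21 in neither. UTP-A, which binds first, had 2 of its 7 genes among them, UTP15 at -1.67 and UTP5 at -1.53, and its 7 genes had a median of -1.19. UTP9 of this complex was also halved in both isolates, but stood at 105 FPKM in WT. Of the 3 genes of the RIX1 complex, IPI1 at -1.59 and IPI3 at -1.48 were members, and RIX1 itself was at -0.73 and was halved in neither isolate.

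The RNA helicases that remodel precursor particles were the largest family, with 12 of 19 among the 113. They were DBP8, ECM16, RRP3, FAL1, ROK1 and DHR2 of the small subunit and SPB4, MAK5, DBP6, DBP7, DBP10 and DRS1 of the large subunit. All 19 were under 0 in both isolates, with a median of -1.29 and a range from -1.79 for DBP8 to -0.72. In contrast, the exosome core had 2 of 10 genes and a median of -0.80, RNase P and MRP 1 of 11 and -0.85, and Elongator 1 of 6 and -0.91. The helicase gene PRP43, CSL4 of the exosome core and POP7 of RNase P and MRP were also halved in both isolates. They lay among the 30 identifiers at a chromosome end and were left out by the rule. RNA polymerase III had 1 of 10 genes among the 113, RPC25. RPC11 was halved in both isolates at a higher WT level, 6 others were halved in isolate 2 only and 2 in neither. A subunit list thus held genes on both sides of the threshold in each of the 9 cases.

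**Figure D4:**
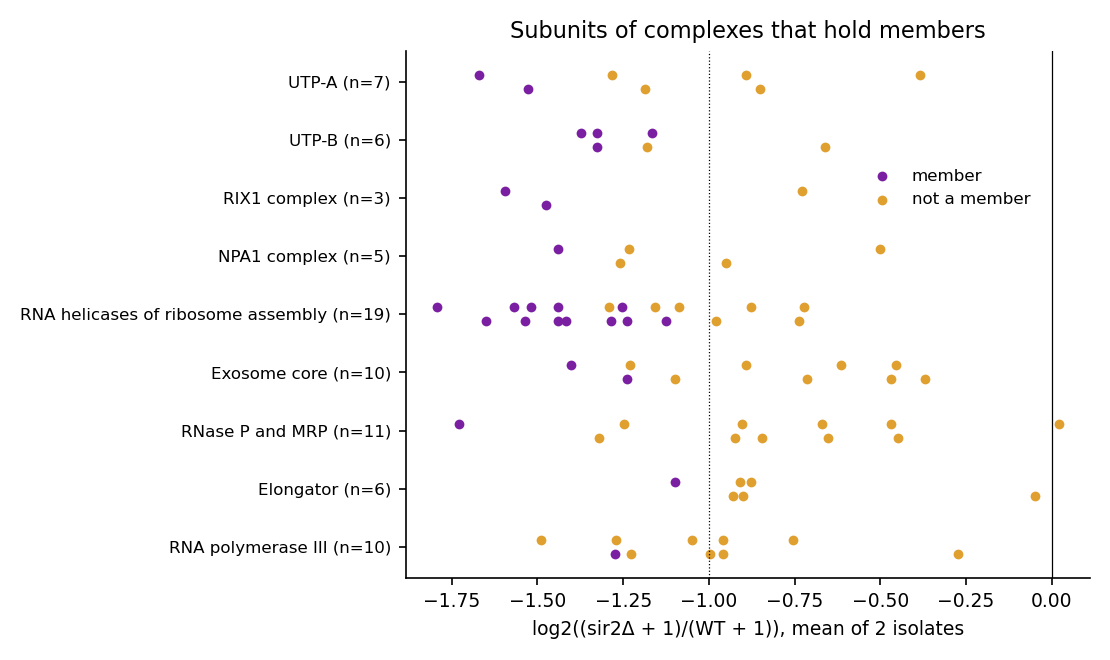
Mean log2 ratio of the sir2Δ isolates over WT (horizontal axis) for each gene of 9 complexes or families, 1 row each, with the chosen genes marked apart from the others and a line at the rule's -1. The 19 RNA helicases all lie under 0 and 12 of them are chosen genes, while the exosome core spreads from -1.40 to -0.37.

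Of the 45 genes outside the ribosome and translation lists, SER2 and MIS1 belonged to amino acid and one-carbon synthesis (2 of 106 genes) and SAM3 to membrane transporters (1 of 53). MIS1, the mitochondrial enzyme that interconverts folate-bound one-carbon units, was at 9.63 and 10.3 FPKM in isolate 1, 8.41 and 7.37 FPKM in isolate 2, and 27.2 and 31.5 FPKM in WT. SAM3, the permease for S-adenosylmethionine, was at 30.1 and 31.9 FPKM in isolate 1, 41.7 and 43.5 FPKM in isolate 2, and 90.9 and 87.1 FPKM in WT. SAM3 was the gene with the clearest reverse order of the isolates. No gene came from the lists for nuclear transport, nucleotide synthesis, sterol and lipid synthesis, the cell cycle, the mitochondrial ribosome, chaperones, or RNA polymerase II and chromatin. These lists do not hold every gene of their role, so an empty list does not mean that the role is absent. The co-chaperone gene CNS1 and MRM2, which acts on mitochondrial ribosomal RNA, were chosen genes in no list. Some of these lists had few internal genes within the range of the rule. It held 9 of 53 sterol and lipid, 10 of 39 nucleotide, 13 of 47 chaperone and 16 of 89 mitochondrial ribosome genes. The range held 27 of 35 nuclear transport, 77 of 107 cell cycle and 79 of 108 polymerase II and chromatin genes. At 100 FPKM or more in WT, 9 sterol and lipid genes were halved in both isolates.

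The 42 genes in no list were grouped by known role after their values were seen. Several again act on ribosomes or translation factors: RKM3 and RMT2 methylate ribosomal proteins, YAR1 is the chaperone of a small subunit protein, CNS1 is an Hsp90 co-chaperone that helps an elongation factor fold, and EFM3 methylates that factor. RKM3 was at 30.3% of WT in isolate 1 and 27.4% in isolate 2, and YAR1 was at 48.3% in isolate 1 and 30.1% in isolate 2. ZPR1, which also binds an elongation factor, was at 48.6 and 45.6 FPKM in isolate 1, 42.2 and 35.8 FPKM in isolate 2, and 95.0 and 97.5 FPKM in WT, with isolate 1 at 49.0% of WT, close to the threshold.

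Another group acts in mitochondria. CCM1, a protein of mitochondrial ribosomal RNA and intron processing, was at 6.19 and 7.64 FPKM in isolate 1, 3.70 and 3.06 FPKM in isolate 2, and 16.7 and 19.1 FPKM in WT. AIM22, a putative lipoate-protein ligase, was at 29.8 and 24.3 FPKM in isolate 1, 19.3 and 18.2 FPKM in isolate 2, and 73.8 and 78.0 FPKM in WT. In both genes the 3 strains were separate. MRM2, a methyltransferase of mitochondrial ribosomal RNA, and MRH4, a mitochondrial RNA helicase, were at 38.3% and 41.8% of WT in isolate 1, with 36.5% for each in isolate 2.

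Splicing factors were ECM2, PRP6 and SLU7, at 44.4%, 43.3% and 48.3% of WT in isolate 1 and 25.8%, 36.9% and 43.7% in isolate 2. Others have other roles. BIO2, biotin synthase, was at 13.01 and 15.9 FPKM in isolate 1, 15.1 and 14.1 FPKM in isolate 2, and 31.0 and 31.8 FPKM in WT. NEM1, a phosphatase subunit of lipid metabolism at the nuclear membrane, was at 43.2 and 46.2 FPKM in isolate 1, 46.6 and 42.9 FPKM in isolate 2, and 95.9 and 89.2 FPKM in WT. The isolates overlapped in both genes. RMI1 and PSY3, which act in DNA repair by recombination, were at 33.3% and 48.7% of WT in isolate 1 and 38.0% and 47.5% in isolate 2. TBF1, a DNA-binding protein of subtelomeres and of promoters such as those of small nucleolar RNA genes, was at 17.5 and 19.1 FPKM in isolate 1, 21.0 and 17.5 FPKM in isolate 2, and 43.6 and 46.6 FPKM in WT. In KLLA0E11639g, which has no symbol, the isolate 2 libraries were 30.8 and 17.6 FPKM, the widest ratio between technical libraries among the 113 genes, against 22.6 and 21.5 FPKM in isolate 1 and 75.5 and 77.9 FPKM in WT.

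The other genes of the same lists were read from the fit over all genes. The lists were assembled with earlier results known, and the genes that passed the rule are left out, so the counts describe the rest of the pathway and are not independent evidence of its direction. Of the 377 tested genes of the 9 lists outside the 113, 219 (58.1%) were lower, 5 (1.33%) were higher and 153 did not pass (limma on strain means, adjusted p under 0.05). Over all tested genes, 19.9% were lower and 20.2% higher. The median log2 change was -0.67 in these genes and -0.06 over all tested genes. The test sets 2 isolates against 1 WT strain, with 1 residual degree of freedom beside the spread shared across genes and with no measure of the spread between WT strains. Whether the isolates arose from separate deletion events is not given in the labels, and if they did not, these p-values are too small.

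Of the 43 other genes placed in the small subunit list, 41 were lower and 0 higher, with 0 higher also at an unadjusted p under 0.05 in limma. UTP23 fell by 1.46 on the log2 scale (SE 0.15, adjusted p = 0.000211, limma) and IMP3 fell by 1.43 (SE 0.30, adjusted p = 0.00685); both are processome proteins that stood above 100 FPKM in WT. The 2 that did not pass were UTP8, at -0.39, and SQS1, a helicase activator, at 0.01. Of the 73 other genes placed in the large subunit list, 64 were lower and 0 higher, again with 0 higher at an unadjusted p under 0.05. SPB1, a methyltransferase of the large subunit RNA, fell by 1.62 (SE 0.31, adjusted p = 0.00479) and NOG2, a GTPase of late nuclear steps, fell by 1.58 (SE 0.25, adjusted p = 0.00202), and both lie among the 30 identifiers at a chromosome end. The cytoplasmic factors ARB1, at 0.25, and JJJ1, at 0.33, did not pass.

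The other lists held smaller shares of lower genes. Of the tRNA processing genes, 32 of 55 were lower and 2 higher. The tRNA deaminase subunit gene TAD2 fell by 1.20 (SE 0.24, adjusted p = 0.00574), and URM1, the modifier used in tRNA thiolation, rose by 0.64 (SE 0.15, adjusted p = 0.0112). Of the polymerase I and III genes, 25 of 39 were lower and 2 higher, the initiation factor genes BDP1 at 0.53 and TFC6 at 0.56. Of the exosome and RNase MRP genes 15 of 23 were lower, and of the small nucleolar particle genes 13 of 22 were lower and 1, SHQ1, higher, at 0.81 (SE 0.18, adjusted p = 0.00854). Translation factors had 16 of 45 lower (35.6%). tRNA synthetases had 5 of 20 lower (25%), near the 19.9% over all tested genes, and ribosomal proteins had 8 of 57 (14.04%), under that share. In these 3 lists 0 genes were higher, and 1 translation factor gene, 0 synthetase genes and 0 ribosomal protein genes were higher at an unadjusted p under 0.05 in limma. The median log2 change was -0.34 over the ribosomal protein genes and -0.28 over the synthetase genes. One ribosomal protein gene stood apart: RPL9B fell by 2.26 (SE 0.15, adjusted p = 1.7e-05). Its value is uncertain where a near-identical copy shares its reads.

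The isolates were then set beside each other. The rule used the level of each isolate, so the difference between them in the chosen genes is not independent of the choice, and the counts are a description. The spread in this fit is that between technical libraries, so a p-value concerns these 2 cultures and not how sir2Δ strains vary. Of the 113 genes, 54 (47.8%) were lower in isolate 2 than in isolate 1 and 1 (0.885%) was higher, against 10.8% and 7.89% of all tested genes (limma on 6 libraries, adjusted p under 0.05). The difference was under 0 in 104 of the 113 and in 2451 of the 5021 tested genes. Its median was -0.31 on the log2 scale, against 0.01 over all tested genes, and it ran from -0.94 to 0.45. Both isolate 2 libraries were under both isolate 1 libraries in 79 of the 113 genes, and in 26.1% of all tested genes. The count of 54 depended on single libraries: it was 27 without the first isolate 1 library, 34 without the second, 38 without the first isolate 2 library and 19 without the second, and 50 without either WT library. The 541 lower genes over all tested genes moved as well, to 230, 457, 342 and 161 without the 4 sir2Δ libraries in the same order, and the 396 higher genes to 119, 461, 259 and 71. With quantile normalization the count among the 113 was 32.

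BUD22 differed the most, with 8.98 and 7.64 FPKM in isolate 2 and 16.2 and 17.5 FPKM in isolate 1, a log2 difference of -0.94 (SE 0.11, adjusted p = 0.000131). KLLA0F07073g followed at -0.86 (SE 0.15, adjusted p = 0.00158) and CCM1 at -0.85 (SE 0.14, adjusted p = 0.000959). In all 3 genes both isolate 2 libraries were under both isolate 1 libraries. SDA1 at -0.71 (SE 0.10, adjusted p = 0.000385) and PXR1 at -0.64 (SE 0.10, adjusted p = 0.0006) also passed. SAM3 was the 1 gene that was higher in isolate 2, by 0.45 (SE 0.09, adjusted p = 0.0031). FAF1, the gene with the lowest ratio to WT, differed by -0.20 (SE 0.12) and did not pass (adjusted p = 0.271), nor did SER2 at -0.18 (adjusted p = 0.187). Of the 23 genes named by rule that passed, BUD22, CCM1, SDA1, PXR1 and GCD10 passed in every alternative tried.

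Of the 68 genes in the 9 ribosome and translation lists, 41 were lower in isolate 2 and 0 higher, with 0 higher also at an unadjusted p under 0.05 in limma, and their median difference was -0.39. Of the other 45, 13 were lower and 1 higher, with a median of -0.17. The difference between these 2 shares was not tested. Outside the 113, 107 of the 377 list genes were lower in isolate 2 and 8 higher, with a median of -0.12. Over all tested genes, 10.8% were lower and 7.89% higher. By role, 12 of 15 large subunit genes, 21 of 36 small subunit genes and 4 of 11 tRNA genes were lower.

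**Figure D5:**
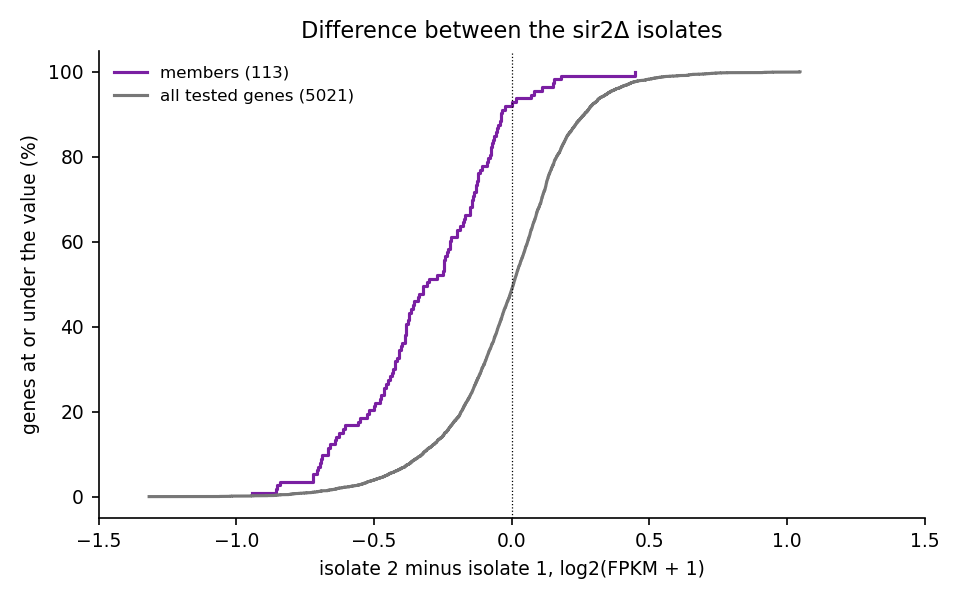
Share of genes in percent (vertical axis) at or under each value of the log2 difference of isolate 2 minus isolate 1 (horizontal axis), for the 113 genes (members) and for all 5021 tested genes. The line of the 113 genes lies left of the other, with a median of -0.31 against 0.01, and 104 of them are under 0.

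A comparison set was the 73 internal genes at 100 FPKM or more in WT that were also halved in both isolates. The 113 genes and this set had like mean log2 ratios, with medians of -1.38 and -1.34, which the rule fixes in part. They differed in makeup: 60.2% of the 113 and 30.1% of the set were in the 9 lists, and 94.7% of the 113 and 79.5% of the set had a gene symbol. In the set, 12 genes (16.4%) were lower and 6 higher in isolate 2 than in isolate 1, with a median difference of -0.07. The median coding length was 1419 nucleotides in the 113 genes, 1020 in the set and 1476 in the internal genes of the same WT level that were not chosen. These are descriptions of sets defined by level and ratio.

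By place on the chromosome, the share of internal genes of this WT level that were chosen ran from 2.50% on chromosome C (12 of 480) to 5.12% on chromosome A (13 of 254), and chromosome F held the most, 34 of 681. In the order of genes, 7 pairs of the 113 were direct neighbours: EFM3 and KLLA0B04455g, IPI3 and NOP6, RRP4 and TRM5, LTV1 and RPC25, POP4 and AIM22, MTC2 and UTP11, and SLU7 and PUS6. Both genes of 3 pairs were in the ribosome and translation lists. The 14 genes are 12.4% of the 113, while 4.41% of the internal genes of the same level that were not chosen had one of the 113 as a neighbour. The gene models of no pair overlap in the table used here, but the library kit does not keep strand, so reads from overlapping untranslated ends cannot be told apart.

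POP4 and AIM22 were the lowest pair, at 33.1% and 35.6% of WT in isolate 1, with 24.8% and 24.7% in isolate 2. SLU7 and PUS6 were at 48.3% and 44.4% in isolate 1, with 43.7% and 41.6% in isolate 2. Of the 210 other genes that flank the 113, 63 (30.0%) were lower and 27 (12.9%) higher in sir2Δ (limma on strain means, adjusted p under 0.05), with a median log2 change of -0.19. Without the genes of the 9 lists, 50 of 189 flanking genes (26.5%) were lower and 27 higher. Over all tested genes 19.9% were lower and 20.2% higher, and the difference from these shares was not tested. PUS6, SLU7 and IPI1 lie 5, 6 and 8 places from SIR2, while the genes directly beside SIR2, TRS65 and RTG1, were higher in sir2Δ.

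The boundary of the rule falls within a continuous range of values. Just inside it were SLU7, at -1.002 in isolate 1 and -1.14 in isolate 2, MDM20, a subunit of an acetyltransferase of protein ends, at -1.004 in isolate 1 and -1.20 in isolate 2, and SOF1, a processome protein, at -1.01 in isolate 1 and -1.24 in isolate 2. Just outside, isolate 1 was at -0.999 for KLLA0F08283g, -0.999 for NOP12, a large subunit factor, and -0.998 for ZNG1, with isolate 2 at -1.36, -1.28 and -1.42. By the higher of the 2 isolate values, 35 of the 113 genes lay between -1.1 and -1, and 51 other genes of the same WT level and position between -1 and -0.9. A further 150 such genes were halved in isolate 2 only and 9 in isolate 1 only.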

How the data were processed

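RNA levels were measured in 6 libraries of 3 K. lactis strains, 2 technical libraries each, on poly(A) RNA read as 50 bp single reads without strand. The values are FPKM as deposited by the authors, made with TopHat2 2.0.10 and Cuffnorm 2.2.1 per the submitters' processing notes, with genome build, annotation and scaling not given in the sources used here. Depth is unknown, so no counting interval is given, and 0 value columns belonged to other samples. A RefSeq gene table (assembly ASM251v1) held all 5076 identifiers and gave symbols, coding lengths and gene order.

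Values were taken as log2(FPKM + 1), which understates the change of low genes, and the 5021 genes that averaged 1 FPKM or more over the strains were tested, with 55 left out. limma 3.58.1 in R 4.3.3 with an intensity trend and Benjamini-Hochberg adjustment gave 2 fits: strain means, 2 isolates against 1 WT strain (1 residual degree of freedom), and the 6 libraries in 3 groups for isolate 2 minus isolate 1 (3 residual degrees of freedom, technical spread only). Technical libraries were averaged and counted as 1 strain in the sir2Δ and WT comparison. The code was tested on simulated data. The 113 genes, the gene lists and the complexes were chosen with earlier results of these data known. Named genes were the 10 lowest mean ratios, the 3 lowest per role list, the 3 extremes in each direction of the isolate difference, the 3 nearest the threshold on each side, the 2 highest and 2 lowest WT levels, and neighbouring pairs; outside the 113, the 2 highest and 2 lowest genes of each ribosome or translation list. Others were named by role after their values were seen. Alternatives were another pseudocount (0.1 or 10), another filter (none or 10), median centring, quantile normalization, fits on 6 libraries with and without a replicate block, and leaving out each library.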

Additional observations from a re-analysis of the deposited data

Results flagged for a closer look

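In the fit of isolate 2 minus isolate 1 (limma on 6 libraries, adjusted p under 0.05), 54 of the 113 genes were lower and 1 higher in isolate 2. Over all tested genes, 10.8% were lower and 7.89% higher. The 113 genes were chosen by the level of each isolate, and the spread behind the fit is technical. The count of 54 was 19 without the second isolate 2 library, 27 without the first isolate 1 library and 34 without the second. Of the 23 genes listed here, 5 passed in every alternative: SDA1, PXR1, GCD10, BUD22 and CCM1. Each value is a log2 difference. Among the genes named by rule, the widest were BUD22 at -0.94, KLLA0F07073g at -0.86, CCM1 at -0.85, SDA1 at -0.71, PXR1 at -0.64 and GCD10 at -0.61. A middle group was KLLA0A07777g at -0.52, HIT1 at -0.52, AIM22 at -0.50, DBP8 at -0.46, UTP11 at -0.43, TRM2 at -0.42, RRP4 at -0.41 and TRM44 at -0.40. The smallest that passed were IPI1, POP4, RPC25 and NOP6, each at -0.39, EBP2 and IPI3, each at -0.37, and RCM1 and TMA23, each at -0.36. SAM3, at 0.45, went the other way. Groups of 2 libraries are too small for a check of single libraries that stand apart.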

How the results depend on the processing

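The 113 genes depend on the pseudocount: the rule gave 32 genes with 10 FPKM added in place of 1, and 131 with 0.1. Over the same 113 genes, the median log2 change was -1.01 with 10 added, against -1.38. Leaving out 1 library gave between 97 and 136 genes, and medians over the same 113 genes between -1.41 and -1.32. Quantile normalization gave 146 genes and median centring 104.

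In sir2Δ against WT, 1000 genes were lower. Without a filter on low values the count was 642, and the counts in the lists outside the 113 were 142 lower (219 with the filter) and 2 higher (5 with it). With the 6 libraries fitted as if independent, 1740 genes were lower, and 13 list genes were higher. With the replicate number as a replicate block these were 1675 and 12. The numbers were not shown to pair the libraries: the replicate differences of isolate 1 and isolate 2 correlated at 0.21 across genes, those of isolate 1 and WT at 0.01 and those of isolate 2 and WT at 0.05. With the block, 58 of the 113 genes were lower in isolate 2 than in isolate 1. Leaving out 1 library gave between 921 and 1041 lower genes, and between 208 and 227 lower and 4 and 6 higher list genes.

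Between the isolates, 259 of all tested genes were higher in isolate 2 without a filter (396 with it). Leaving out 1 library gave between 161 and 465 lower and between 71 and 461 higher genes. Among the 113, it gave between 19 and 50 lower, and quantile normalization gave 32 lower and 3 higher. Some isolate differences changed sign, none of them past the threshold. With quantile normalization FAF1 was at 0.074, SLU7 at 0.043, RSA1 at 0.20, KLLA0B04455g at 0.00015, TRM5 at 0.052, LTV1 at 0.022, MTC2 at 0.13 and PUS6 at 0.10. Leaving out 1 library gave differences between -0.28 and 0.029 for RRP46, -0.36 and 0.062 for SLU7, -0.25 and 0.039 for RSA1, -0.18 and 0.028 for KLLA0B04455g, -0.10 and 0.017 for LTV1, -0.14 and 0.021 for MTC2, and -0.28 and 0.11 for PUS6. The cause was not tested for any of these, beyond fewer libraries where one was left out. Read depth is unknown, so what it limits cannot be given.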
